A study of Mus musculus with 6 samples.

Results

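Lysosomal enzymes and membrane proteins of the mouse testis are described here as a set of 37 genes, taken from a fixed list of acid hydrolases, their activator proteins, proteins of the lysosomal membrane and the transcription factor Tfeb. Of the 37 genes, 36 had a value, each from the probe set whose only symbol is that gene and whose mean over the 6 arrays is highest, out of 22180 genes chosen in the same way. Glb1, which encodes the β-galactosidase of lysosomes, had only a probe set that also carries another symbol, so no value is given for it. Whole-testis RNA, from C57BL/6J mice aged 10 weeks, was hybridised to Affymetrix mouse gene 2.0 st arrays. The 3 ATZ-treated samples came from mice that drank water with atrazine (ATZ), a triazine herbicide, at 100 mg/l for 3 weeks, or about 25 mg/kg per day, and were then kept for 2 weeks without it. The 3 control samples had no ATZ. The labels do not say whether a sample is 1 animal or a pool, so each test measures only the spread between these arrays, and their number limits the precision. Values are log2 signals, and each change is the ATZ mean minus the control mean on that scale.

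The lysosome is an acid organelle in which proteins, glycans and lipids brought in by endocytosis, phagocytosis and autophagy are broken down. Most of its soluble enzymes are tagged with mannose 6-phosphate in the Golgi and carried on by receptors, while its membrane proteins carry heavy glycan coats and move lipids, ions and amino acids. In the testis, Sertoli cells digest residual bodies and dying germ cells in lysosomes, macrophages of the interstitium are rich in them, Leydig cells draw on lysosomal cholesterol, and the acrosome of spermatids is a lysosome-related organelle. Tfeb and its relatives bind a palindrome with the core CACGTG, known as the CLEAR element, in front of many lysosomal genes.

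The promoter sequences are shown first, because this palindrome is known from many lysosomal genes. RefSeq promoters on GRCm38.p6, 250 bases before to 50 bases after each start, were at hand for 33 of the 37 genes, and not for Ctsb, Ctsh, Asah1 and Npc1. The core CACGTG occurred in promoters of 11 of 33 genes (33.3%), against 2187 of 27025 genes (8.09%) in the whole table. The longer palindrome TCACGTGA, which contains that core, occurred in 5 of 33 genes (15.2%), against 304 of 27025 genes (1.12%). Both words read the same on either strand, so both strands were searched. Counted by promoter, 11 of 38 held the core (28.9%, against 7.15% of all 32851) and 5 of 38 the longer word (13.2%, against 0.974%). The genes with the core were Arsa, Cln3, Ctsa, Ctsd, Gaa, Gla, Glb1, Lamp1, Mcoln1, Naglu and Sgsh, a mixture of proteases, glycosidases, sulfatases and membrane proteins. A stretch around TCACGTGA is printed for each of the 5 genes that hold it, and for Lamp1, whose promoter holds the core 4 times within 64 bases. Each of those 5 genes also holds a further CACGTG outside the printed stretch, for Ctsa after the start. Capitals mark the motif, each stretch lies before the start and reads 5′ to 3′ on the gene's strand, and a match describes the letters, not a site that was tested.
Ctsd, chr7:142387901-142387944, minus strand: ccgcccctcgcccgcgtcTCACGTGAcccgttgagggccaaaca
Ctsa, chr2:164833742-164833772, plus strand: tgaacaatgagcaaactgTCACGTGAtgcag
Gla, chrX:134601175-134601218, minus strand: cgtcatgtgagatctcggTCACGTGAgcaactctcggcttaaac
Cln3, chr7:126583333-126583376, minus strand: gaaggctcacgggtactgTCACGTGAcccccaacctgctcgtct
Mcoln1, chr8:3500455-3500498, plus strand: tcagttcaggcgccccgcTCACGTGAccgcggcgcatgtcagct
Lamp1, chr8:13159094-13159157, plus strand: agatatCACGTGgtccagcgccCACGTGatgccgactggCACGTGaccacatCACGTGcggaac

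The lysosomal genes were measured at similar levels in ATZ-treated and control testes, and no gene of the set passed the test. With limma, 0 of 36 genes had an adjusted p under 0.05, as did 0% of all 22180 genes, and every adjusted p in the set was 0.998. At an unadjusted p under 0.05 the set again held 0 of 36, against 530 of 22180 genes (2.39%), and at a fold of 1.5 with that p it held 0 of 36, against 45 genes (0.203%). In 0 of 36 genes did the 3 ATZ arrays lie wholly above or wholly below the 3 control arrays, which was so for 1532 of 22180 genes (6.91%). Without control replicate 3 that count was 8 of 36, against 22.5% of all genes. The changes ran between -0.22 for Idua and 0.13 for Galc. Their median was -0.017 (-0.003 over all genes), and the median size of a change was 0.033, against 0.073 over all genes. The ATZ mean was lower than the control mean in 25 of 36 genes (69.4%, against 50.8% of all genes). With single arrays left out, that count ran from 10 without control replicate 2 to 31 without control replicate 3, against 48.0% and 52.5% of all genes. It was 16 without ATZ replicate 3 and 28 without ATZ replicate 1, against 50.3% and 51.0% of all genes. With all arrays kept it moved with the scaling. It was 18 of 36 (50%) after repeated quantile normalization, against 49.6% of all genes, 18 of 36 with array weights, against 51.6%, and 30 of 36 (83.3%) with each array centred on its median, against 62.8%.

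A missed threshold does not show equal levels, so the 95% intervals of the fit are given as bounds. The lowest bound of the set was a log2 change of -0.59 for Ids, a fold of 0.665, and the highest was 0.425 for Tpp1, a fold of 1.34. At the probe sets used, a fold of 1.5 in either direction thus lay outside the interval of each gene except Ids, on its lower side. The intervals of Idua and Gaa ended only just short of it, at folds of 0.6673 and 0.6674. At the other probe set of Arsb, given below, the interval went past it, down to a fold of 0.637. The standard errors ran between 0.0773 for Lamp1 and 0.206 for Ids, with a median of 0.122.

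**Figure D1:**
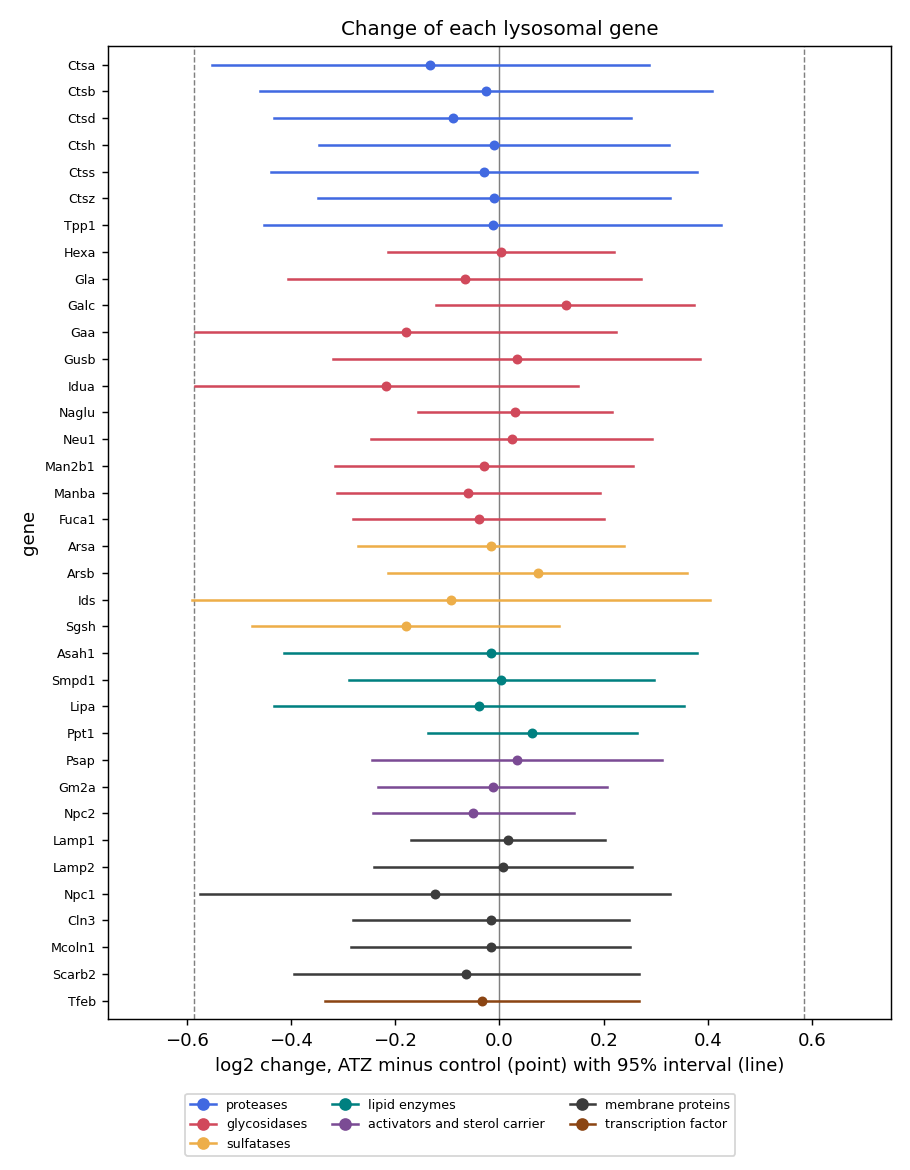
The log2 change (ATZ minus control, horizontal axis) of each of the 36 lysosomal genes (vertical axis, coloured by role), with points for the fitted change, lines for its 95% interval and dashed lines at a fold of 1.5 in either direction. All 36 intervals cross 0, with Idua (-0.22) farthest to the left and Galc (0.13) farthest to the right.

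The 7 proteases were all measured, and all 7 had a lower mean in ATZ testes, with a median change of -0.03 and none past the test. Ctsd, the main aspartic protease of lysosomes, measured 10.35, 10.22 and 10.12 on the ATZ arrays, against 10.30, 10.57 and 10.09 on the control arrays. The ATZ arrays lay within the range of the controls, whose replicate 2 was highest and replicate 3 lowest of all 6. The means were 10.23 ± 0.115 in ATZ and 10.32 ± 0.241 in control testes (SD, n = 3 each), a change of -0.09 (standard error 0.142, 95% interval -0.43 to 0.25, adjusted p = 0.998, limma). The change of Ctsd was 0.035 without control replicate 2. The carboxypeptidase Ctsa, which also protects the sialidase Neu1 in a complex, had a change of -0.13. It was -0.03 for the cysteine protease Ctsb, -0.01 for the aminopeptidase Ctsh and -0.01 for the carboxypeptidase Ctsz. Ctss, a cysteine protease of antigen-presenting cells, had -0.03, and the tripeptidyl peptidase Tpp1 had -0.01.

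Of the glycosidases, which remove sugars one by one from glycans and glycolipids, 11 of 12 were measured, 6 with a lower and 5 with a higher mean in ATZ testes and a median change of -0.03. Idua, which removes iduronic acid from heparan and dermatan sulfate, had the lowest change of the set when all arrays were kept. It measured 7.98, 7.81 and 7.55 on the ATZ arrays, against 8.09, 8.13 and 7.77 on the control arrays. ATZ replicate 3 was lowest of all, but ATZ replicates 1 and 2 lay above control replicate 3, so the groups overlapped. Its change was -0.22 (standard error 0.153, 95% interval -0.58 to 0.15, adjusted p = 0.998, limma), with means of 7.78 ± 0.217 in ATZ and 8.00 ± 0.197 in control testes (SD, n = 3 each). The change of Idua was -0.10 without ATZ replicate 3 and -0.33 without control replicate 3. Gaa, the acid α-glucosidase that degrades glycogen, measured 9.62, 9.21 and 9.35 on the ATZ arrays, against 9.64, 9.79 and 9.29 on the control arrays, a change of -0.18 (standard error 0.168). Here ATZ replicate 2 was the lowest array and control replicate 2 the highest. The change of Gaa was -0.09 without ATZ replicate 2 and -0.07 without control replicate 2, while it was -0.29 without ATZ replicate 1 and -0.32 without control replicate 3.

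Galc, which cleaves galactosylceramide, had the highest change of the set, 0.13 (standard error 0.103, 95% interval -0.12 to 0.37, adjusted p = 0.998, limma). It measured 9.69, 9.61 and 9.66 on the ATZ arrays, against 9.37, 9.54 and 9.67 on the control arrays. Galc was thus even across the ATZ arrays, and control replicate 3 lay among them. Its change was 0.05 without control replicate 1 and 0.20 without control replicate 3. Naglu, which acts on heparan sulfate, had 0.03 and Hexa, the α subunit of β-hexosaminidase, 0.00. The β-glucuronidase Gusb had 0.03 and the sialidase Neu1 0.02. The change was -0.03 for the α-mannosidase Man2b1 and -0.06 for the β-mannosidase Manba. It was -0.07 for the α-galactosidase Gla and -0.04 for the α-fucosidase Fuca1.

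The 4 sulfatases, which take sulfate off glycosaminoglycans and sulfatide, had a median change of -0.055, with 3 lower and 1 higher mean in ATZ testes. Sgsh, the sulfamidase of heparan sulfate, measured 9.57, 9.57 and 9.47 on the ATZ arrays, against 9.81, 9.86 and 9.48 on the control arrays. The ATZ arrays lay close together, and only control replicate 3 fell among them. The change was -0.18 (standard error 0.123, 95% interval -0.48 to 0.12, adjusted p = 0.998, limma). The change of Sgsh was -0.11 without control replicate 2 and -0.30 without control replicate 3. In that last setting Sgsh had an unadjusted p under 0.05, 1 of 36 genes, against 914 of 22180 (4.12%). The iduronate sulfatase Ids, whose arrays spread most, had -0.09 and the sulfatide-degrading Arsa -0.02.

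Arsb, the sulfatase of dermatan and chondroitin sulfate, had probe sets that differed in direction. Its probe set with the highest mean read 9.24, 9.21 and 9.09 on the ATZ arrays, against 9.20, 9.23 and 8.89 on the control arrays, a change of 0.07 (standard error 0.119). The other probe set with this symbol alone read 6.15, 5.82 and 6.09 on the ATZ arrays, against 6.31, 6.53 and 6.24 on the control arrays. There all 3 ATZ arrays lay below all 3 control arrays. The change was -0.34 (standard error 0.129, 95% interval -0.65 to -0.03, unadjusted p = 0.0363, adjusted p = 0.998, limma). That probe set lay below the table's median, 6.625, and which of the 2 follows the transcript was not tested. Another probe set was also present for Smpd1, with a change of -0.27 (0.00 at the one used), and for Npc1, with -0.03 (-0.12 at the one used).

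Among the 4 enzymes of lipids, 2 had a lower and 2 a higher mean in ATZ testes, with a median change of -0.01. Ppt1, a thioesterase that takes palmitate off proteins, measured 12.58, 12.65 and 12.55 on the ATZ arrays, against 12.46, 12.58 and 12.55 on the control arrays. These 6 values were close and overlapping, and the change was 0.06 (standard error 0.0833, 95% interval -0.14 to 0.26, adjusted p = 0.998, limma). The acid ceramidase Asah1 had -0.02, the acid sphingomyelinase Smpd1 0.00 and the acid lipase Lipa, which frees cholesterol from its esters, -0.04.

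Psap encodes prosaposin, the precursor of the saposins that present sphingolipids to their hydrolases, and is produced in quantity by Sertoli cells. Its annotated probe set measured 12.31, 12.15 and 12.20 on the ATZ arrays, against 12.17, 12.37 and 12.02 on the control arrays. The ATZ arrays lay inside the range of the controls. Psap averaged 12.22 ± 0.0819 in ATZ and 12.19 ± 0.176 in control testes (SD, n = 3 each), a change of 0.03 (standard error 0.115, 95% interval -0.24 to 0.31, adjusted p = 0.998, limma). The change of Psap turned to -0.05 without control replicate 3 and to -0.01 without ATZ replicate 1.

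The study lists a different probe set under Psap, one that carries no symbol in the annotation of the arrays. It read 7.68, 8.33 and 7.93 on the ATZ arrays, against 7.07, 6.97 and 7.51 on the control arrays, so all ATZ arrays lay above all control arrays. The means were 7.98 ± 0.328 in ATZ and 7.18 ± 0.287 in control testes (SD, n = 3 each), a log2 change of 0.80 (standard error 0.212, 95% interval 0.29 to 1.31) and a fold of 1.74. The adjusted p was 0.998 (limma), and with single arrays left out the change lay between 0.62 and 0.96. Since this probe set was chosen by the study for its change on these same arrays, its values are a description and no independent evidence. It is one of 5333 probe sets without a symbol at the lowest identifiers of the array, of which 268 (5.03%) met a fold of 1.5 with an unadjusted p under 0.05, against 0.2% of probe sets with 1 symbol. Their median SD within a group was 0.387, against 0.134 for probe sets with 1 symbol. The gene behind it could not be checked, and the change at the annotated Psap probe set was 0.76 lower.

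**Figure D2:**
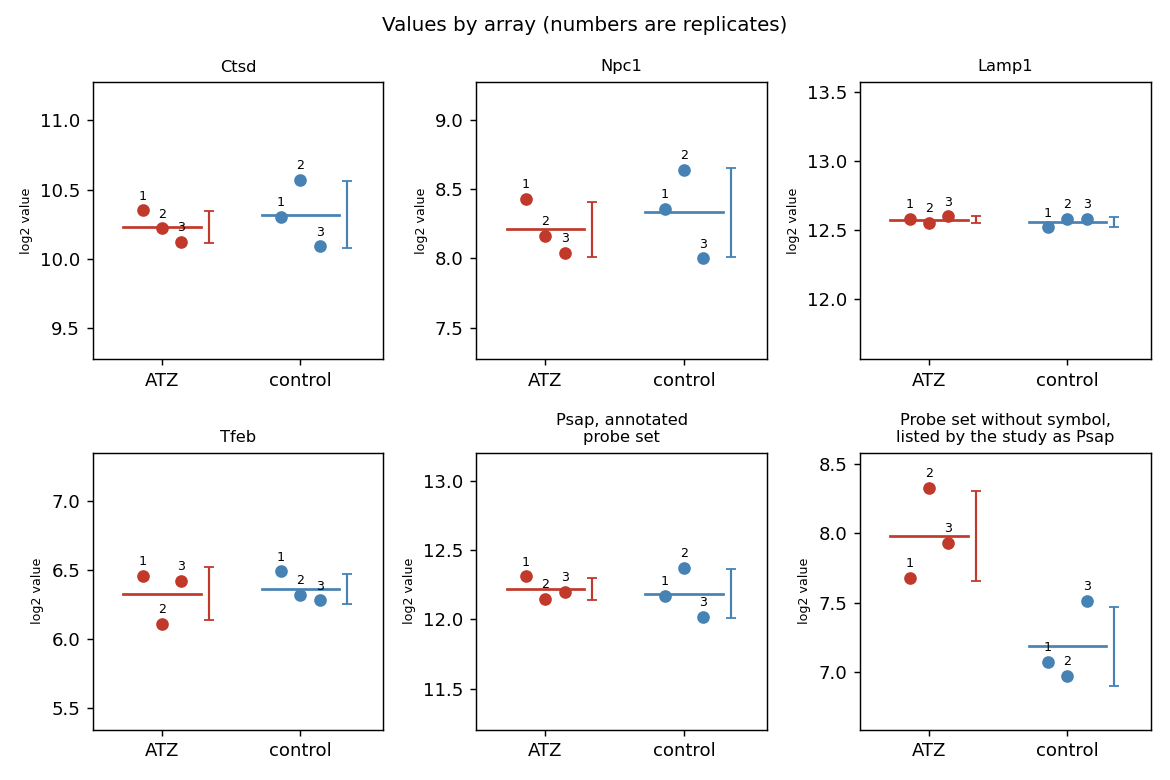
Log2 value (vertical axis, spanning the same width in each panel) on the 3 ATZ arrays (red) and the 3 control arrays (blue) for Ctsd, Npc1, Lamp1, Tfeb, the annotated Psap probe set and the probe set without a symbol that the study lists as Psap, with numbers for replicates, horizontal lines for means and bars for ± 1 SD. The groups overlap in each of the 5 annotated genes, with Lamp1 flat at 12.52 to 12.60, and separate only at the probe set without a symbol, where the ATZ arrays read 7.68 to 8.33 and the control arrays 6.97 to 7.51.

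Gm2a, the activator that lifts the ganglioside GM2 out of the membrane, had a change of -0.01. Npc2 and Npc1 hand cholesterol on from the lumen to the membrane and then out of the lysosome. The soluble carrier Npc2 measured 10.37, 10.30 and 10.34 on the ATZ arrays, against 10.39, 10.44 and 10.33 on the control arrays, a change of -0.05 (standard error 0.0804, 95% interval -0.24 to 0.14, adjusted p = 0.998, limma). The membrane transporter Npc1 measured 8.43, 8.16 and 8.04 on the ATZ arrays, against 8.36, 8.64 and 8.00 on the control arrays, a change of -0.12 (standard error 0.187, 95% interval -0.57 to 0.33, adjusted p = 0.998, limma). The pair thus differed in spread, with Npc2 between 10.30 and 10.44 over all arrays and Npc1 varying widely within both groups. Without control replicate 2 the change of Npc1 was 0.03.

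Of the 6 membrane proteins, 4 had a lower and 2 a higher mean in ATZ testes, with a median change of -0.02. Lamp1, a major glycoprotein of the lysosomal coat, measured 12.58, 12.55 and 12.60 on the ATZ arrays, against 12.52, 12.58 and 12.58 on the control arrays. It was the steadiest gene of the set, with a change of 0.02 (standard error 0.0773, 95% interval -0.17 to 0.20, adjusted p = 0.998, limma) that turned to -0.01 when each array was centred on its median. Lamp2, its relative that also serves as receptor in chaperone-mediated autophagy, measured 9.66, 9.50 and 9.63 on the ATZ arrays, against 9.51, 9.74 and 9.52 on the control arrays. ATZ replicate 2 was lowest and control replicate 2 highest, with the other arrays mixed and a change of 0.01 (standard error 0.103), or -0.02 with arrays centred on their medians. The changes were -0.02 for Cln3, a membrane protein whose loss causes a neuronal ceroid lipofuscinosis, and -0.02 for the calcium channel Mcoln1. Scarb2, which escorts glucocerebrosidase to the lysosome, had -0.06.

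Tfeb, the transcription factor that drives lysosomal genes when it enters the nucleus, was the only gene of the set whose probe set lay below the median of the table. It measured 6.46, 6.11 and 6.42 on the ATZ arrays, against 6.49, 6.32 and 6.28 on the control arrays. The lowest value was ATZ replicate 2, the other two ATZ arrays lay within the controls, and the change was -0.03 (standard error 0.125, 95% interval -0.34 to 0.27, adjusted p = 0.998, limma). The change was 0.08 without ATZ replicate 2. The 10 measured genes with CACGTG in the promoter had changes of -0.18 to 0.03 with a median of -0.04 and 8 lower, while the 22 measured genes without it had changes of -0.22 to 0.13 with a median of -0.01 and 13 lower. The 2 ranges overlapped, and no test was made between them.

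The variation that stood out lay between arrays of the same group. Of the 36 lysosomal genes, 25 had their highest value of all on control replicate 2 (69.4%, against 25.1% of all genes), and 0 their lowest. The pattern was not particular to this set. In the further lists described below, the share highest on control replicate 2 was 66.7% for other lysosomal enzymes and 58.6% for sorting genes. It was 52.6% for regulators and relatives of Tfeb, 43.8% for other membrane proteins, 34.8% for the proton pump and 34.6% for autophagy. On control replicate 3, 16 genes had their lowest value of all (44.4%, against 15.6% of all genes). Control replicate 2 exceeded control replicate 3 in 32 of 36 genes (88.9%, against 52.1% of all genes), by a median of 0.345 (0.02 over all genes). Among treated testes, ATZ replicate 1 exceeded ATZ replicate 3 in 32 of 36 genes as well (88.9%, against 50.9% of all genes), by a median of 0.14. In all 36 genes the range over the 3 controls was wider than the change between the groups, which was so for 88.4% of all genes. The median SD within a group was 0.100 in ATZ and 0.187 in control testes, against 0.116 and 0.121 over all genes. Since the genes were measured on the same arrays, these counts describe 6 arrays and not 36 independent observations.

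The proteases shared this pattern most evenly. Their mean deviation from each gene's own mean was 0.12, -0.01 and -0.18 on the ATZ arrays, against 0.06, 0.27 and -0.26 on the control arrays. Control replicate 2 exceeded control replicate 3 by 0.62 for Tpp1, 0.61 for Ctsb and 0.56 for Ctsa. Outside the proteases it did so by 0.68 for Ids and 0.64 for Npc1, and altogether 24 of the 36 genes had a difference of at least 0.3. A smaller group showed it weakly or not at all. The difference lay between -0.02 and 0.11 for Naglu, Lamp1, Hexa, Ppt1, Tfeb, Gm2a and Npc2, and it ran the other way for Galc (-0.13) and Arsa (-0.25). Among the genes described above as acting on heparan sulfate, only Naglu lay in this smaller group (-0.02), against 0.36 for Idua and 0.38 for Sgsh. Genes with and without the promoter motif both showed it, with a median difference of 0.36 in the 10 genes with CACGTG (-0.25 to 0.56) and 0.31 in the 22 without it (-0.13 to 0.68).

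**Figure D3:**
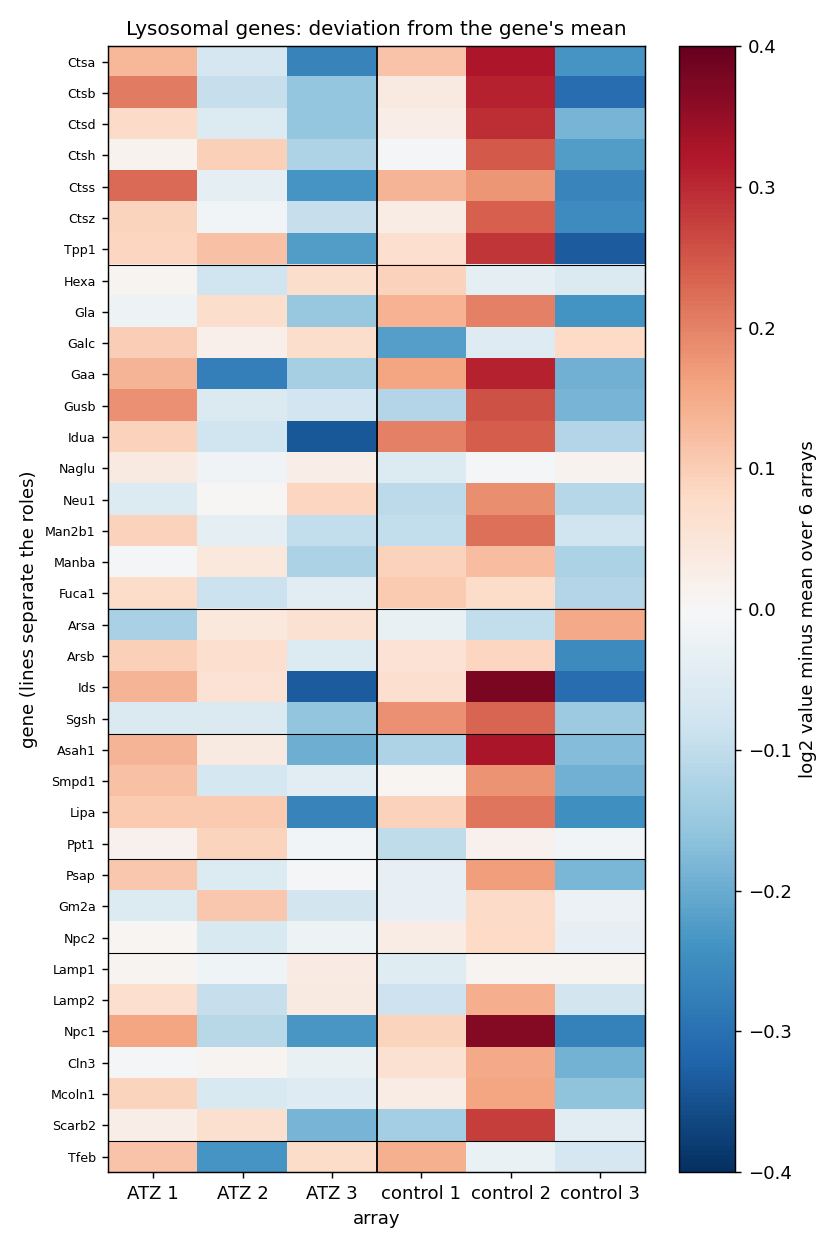
Heat map of the log2 value minus the gene's mean over the 6 arrays (colour) for the 36 lysosomal genes (vertical axis, in blocks by role) on the 3 ATZ arrays and the 3 control arrays (horizontal axis). The column of control replicate 2 is highest in 25 genes, those of ATZ replicate 3 and control replicate 3 are mostly low, and rows such as Lamp1, Naglu and Ppt1 stay near 0 throughout.

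Markers of the somatic cells of the testis, and of spermatogonia among the germ cells, moved over the arrays in the same direction. In bulk tissue, fewer cells of a type and less RNA per cell cannot be told apart. The 36 lysosomal genes had a mean level of 9.58, 9.49 and 9.41 on the ATZ arrays, against 9.53, 9.68 and 9.37 on the control arrays. The 20 macrophage markers had 7.80, 7.76 and 7.61 on the ATZ arrays, against 7.81, 7.88 and 7.56 on the control arrays, with control replicate 2 above control replicate 3 in 16 of 20. The 18 Sertoli cell markers, of 20 listed, had 9.67, 9.61 and 9.57 on the ATZ arrays, against 9.63, 9.90 and 9.54 on the control arrays, with 18 of 18 above in that way. Thus both lists were highest on control replicate 2 and low on ATZ replicate 3 and control replicate 3, as the lysosomal genes were. The 11 Leydig cell markers, of 15 listed, lay at 9.91 to 10.02 on the ATZ arrays and 9.89 to 10.29 on the control arrays, and the 12 peritubular markers at 8.47 to 8.66 and 8.46 to 8.89. The 12 endothelial markers lay at 7.30 to 7.54 on the ATZ arrays and 7.24 to 7.70 on the control arrays, and the 15 spermatogonial markers at 8.08 to 8.19 and 8.14 to 8.35. Each of these lists was highest on control replicate 2 too.

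Markers of later germ cells, which make up most of a testis, moved little between arrays. The 14 spermatocyte markers, of 15 listed, lay at 10.96 to 10.97 on the ATZ arrays and 10.96 to 11.04 on the control arrays. The 17 spermatid markers, of 18 listed, lay at 12.05 to 12.07 on the ATZ arrays and 12.03 to 12.09 on the control arrays. By a small margin the spermatid markers ran the other way from the lysosomal genes. Control replicate 2 exceeded control replicate 3 in 5 of 17, with a median difference of -0.07. Both ATZ and control testes thus carried the markers of a testis with sperm formation. The 11 markers of epididymal epithelium, of 12 listed, lay low and also ran the other way. They lay at 5.87 to 5.96 on the ATZ arrays and 5.74 to 6.00 on the control arrays, lowest on control replicate 2. The part of cell composition in the array pattern of the lysosomal genes was not tested.

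**Figure D4:**
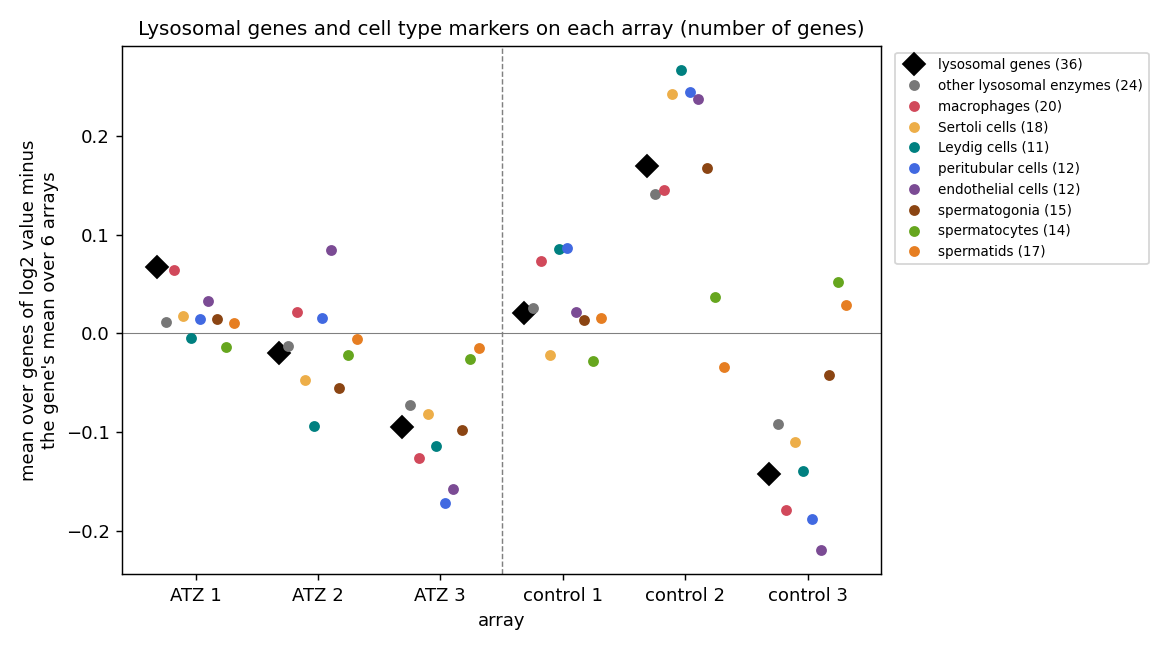
Mean over genes of the log2 value minus each gene's mean over 6 arrays (vertical axis) on the 3 ATZ and the 3 control arrays (horizontal axis), for the 36 lysosomal genes (black diamonds), a list of other lysosomal enzymes (grey) and markers of testicular cell types (colours, number of genes in brackets). The lysosomal genes (0.17 on control replicate 2, -0.095 on ATZ replicate 3 and -0.14 on control replicate 3) lie with the somatic cell markers. Spermatogonial markers are also high on control replicate 2 (0.17) and low on ATZ replicate 3 (-0.10), with -0.04 on control replicate 3. Spermatocyte and spermatid markers stay between -0.03 and 0.05.

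Genes that build and supply the lysosome around this set were looked at in 6 further lists, and with limma 0 genes of any of them had an adjusted p under 0.05 or an unadjusted p under 0.05. Each list held 1 or 2 genes whose groups did not overlap, a share of 3.45% to 6.25%, against 6.91% of all genes. Of 24 measured further lysosomal enzymes (31 listed), 15 had a lower mean in ATZ testes (62.5%, against 50.8% of all genes), with a median change of -0.06. The smallest p-values were those of the hyaluronidase Hyal2 (-0.21, standard error 0.115), the bone-degrading protease Ctsk (-0.18, standard error 0.111), which lay below the table's median, and the sulfatase Arsg (0.13, standard error 0.0865). Arsg measured 7.10, 7.05 and 7.21 on the ATZ arrays, against 7.02, 6.93 and 7.01 on the control arrays, without overlap. Of 32 further membrane proteins, 16 were lower, with a median change of 0.01. They were led by the sialic acid exporter Slc17a5 (-0.24, standard error 0.154), the tetraspanin Cd9 (-0.18, standard error 0.117) and Laptm4a (0.11, standard error 0.0792). Laptm4a measured 13.01, 13.02 and 13.00 on the ATZ arrays, against 12.85, 12.96 and 12.88 on the control arrays, and the peptide transporter Abcb9 (-0.03) 9.18, 9.18 and 9.18 on the ATZ arrays, against 9.22, 9.20 and 9.22 on the control arrays. These 2 genes of 32 did not overlap.

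Of 23 measured subunits of the vacuolar proton pump (24 listed), which acidifies the lysosome, 14 were lower (60.9%), with a median change of -0.02. The smallest p-values were those of Atp6v0a1 in the membrane sector (-0.17, standard error 0.125) and of Atp6v1f (0.11, standard error 0.100) and Atp6v1h (0.08, standard error 0.0779) in the cytosolic sector. Atp6v1h measured 9.89, 9.92 and 9.95 on the ATZ arrays, against 9.87, 9.86 and 9.80 on the control arrays, without overlap. Among 29 genes of sorting to the lysosome, 24 were lower (82.8%, against 50.8% of all genes), with a median change of -0.07. Of these 29 genes, 17 were highest on control replicate 2 and 14 lowest on ATZ replicate 3, against 25.1% and 22.7% of all genes. The count of lower genes in this list was not recomputed with arrays left out or other scaling. Vps11, of the tethering complexes that fuse endosomes with lysosomes, measured 10.29, 10.26 and 10.22 on the ATZ arrays, against 10.43, 10.49 and 10.30 on the control arrays, a change of -0.15 (standard error 0.0883) with no overlap. The large mannose 6-phosphate receptor Igf2r had -0.17 (standard error 0.115) and the adaptor Gga2 -0.18 (standard error 0.123), and both overlapped.

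Of 19 measured regulators and relatives of Tfeb (20 listed), 14 were lower (73.7%, against 50.8% of all genes), with a median change of -0.05. Rragd, a GTPase that brings mTOR complexes to the lysosome, had -0.23 (standard error 0.114). Tfec, a relative of Tfeb that lay below the table's median, had 0.19 (standard error 0.0983), and the folliculin partner Fnip2 -0.20 (standard error 0.131). The kinase Mtor, which keeps Tfeb out of the nucleus in fed cells, measured 11.12, 11.11 and 11.21 on the ATZ arrays, against 11.24, 11.25 and 11.27 on the control arrays, a change of -0.11 (standard error 0.0792). Its groups did not overlap, 1 case among 19 genes. Of 26 autophagy genes, 18 were lower (69.2%), with a median change of -0.025. Gabarapl2 had 0.17 (standard error 0.105), Uvrag -0.11 (standard error 0.117) and Atg16l1 -0.09 (standard error 0.0881), and the Atg8 relative Gabarap had 0.06 (standard error 0.0782). Gabarap measured 13.26, 13.25 and 13.27 on the ATZ arrays, against 13.23, 13.14 and 13.22 on the control arrays, without overlap. The median change over all genes was -0.03 at a mean level of 7 to 8, -0.04 at 8 to 9 and -0.03 at 9 to 10. There 5, 8 and 11 of the 36 lysosomal genes lie. It was 0.03 at 6 to 7, -0.01 at 10 to 11, 0 at 11 to 12 and 0.007 from 12 upward. There 1, 4, 3 and 4 of the 36 lie. The part of signal level in the changes was not tested.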

How the data were processed

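Total RNA of 3 ATZ-treated and 3 control testis samples was measured. The deposited log2 values were made by the authors with robust multi-array average (RMA, Affymetrix Expression Console). RMA includes background correction, a step that equalises the arrays before the summary, and 1 summary per probe set. The array medians of the deposited values still ran from 6.60 on control replicate 2 to 6.69 on ATZ replicate 3. The software versions are not given in the sources used here. The table holds 41345 probe sets at 2 decimals, of which 23521 have 1 symbol, 1820 several and 16004 none in the annotation, and pairs of arrays correlated at 0.986 to 0.992 across probe sets.

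The test was that of limma 3.58.1 (R 4.3.3; two-sided, Benjamini-Hochberg over all probe sets), without a filter. The study names AMEN software with a fold of 1.5 and a p under 0.05, without saying whether that p was adjusted, and here limma's unadjusted p was used. An exact permutation test of 3 against 3 cannot go below 0.10 and was not used. The genes and lists were chosen with earlier results of these data known. By rule, values by array are given for 7 fixed genes and the 3 highest and 3 lowest changes, and in each further list the 3 genes with the smallest p are named. Genes with no overlap in those lists, and the weaker Arsb probe set, were named after their values were seen. 2 list genes were found under another symbol.

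The alternatives were a replicate block, repeated quantile normalization, centring on medians, a variance trend, array weights, unmoderated tests of single probe sets, a filter on dim probe sets, probe sets with 1 symbol, other choices of probe set, and each array left out. Replicate numbers were not taken as pairs.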

Additional observations from a re-analysis of the deposited data

How the results depend on the processing

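The counts of the set, its median change and the changes of the 13 genes given by array were recomputed under 16 alternatives (15 for Tfeb). The array pattern, the lists and the promoter groups were not recomputed. The count of lysosomal genes with an adjusted p under 0.05, and that at a fold of 1.5 with an unadjusted p under 0.05, was 0 in all 16. With the probe set of largest spread per gene, the count at an unadjusted p under 0.05 (limma) was 1 (Arsb). The share of all genes under that choice was not computed. The count without overlap between the groups was also 1 (Arsb) under that choice, and 0 to 8 with single arrays left out. It was 8 without control replicate 3, where 22.5% of all genes did not overlap, 2 without ATZ replicate 2 (Naglu and Gm2a), against 16.2% of all genes, and 2 without control replicate 2 (Gusb and Neu1), against 13.2%. The median change lay between -0.11 and 0.06 with single arrays left out and between -0.05 and 0.00 otherwise. The replicate block gave a median change of -0.02 and changed no call, and deviations of arrays with the same number correlated at 0.05, 0.14 and 0.41, the first of them under the limit of 0.1 set for pairs. With arrays centred on their medians, Lamp1 turned to -0.013 and Lamp2 to -0.023. Arsb turned to -0.34 with the probe set of largest spread and to -0.13 with the mean of its probe sets. With single arrays left out, the change crossed 0 for Psap (-0.05 to 0.125), Lamp1 (-0.0033 to 0.03), Lamp2 (-0.0333 to 0.0817), Ctsd (-0.205 to 0.035), Npc1 (-0.29 to 0.03), Tfeb (-0.0983 to 0.0767) and Arsb (-0.035 to 0.135). It kept its sign for Idua (-0.33 to -0.10), Sgsh (-0.30 to -0.11), Gaa (-0.32 to -0.07), Npc2 (-0.08 to -0.02), Ppt1 (0.03 to 0.09) and Galc (0.05 to 0.20). The filter on dim probe sets left 35 genes, without Tfeb. Precision is limited by 3 arrays a group, and the cause of these differences was not tested.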
